A study of Arabidopsis thaliana with 6 samples.

Results

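Photosystem II is the thylakoid complex that oxidises water and starts photosynthetic electron transport. Its reaction centre and inner antenna are encoded in the chloroplast, whereas the proteins that shield the manganese cluster and several small membrane subunits are encoded in the nucleus and imported. The nuclear genes PSBO1, PSBO2, PSBP1, PSBQ1, PSBQ2, PSBR, PSBS, PSBW, PSBX and PSBY were chosen by gene identifier, and all 10 were found among the 23640 features of the count table. They were examined in 6 RNA-seq libraries of Arabidopsis thaliana, ecotype Col, from seedlings grown in vitro for 14 days. Of the libraries, 3 came from wild-type plants and 3 from the mutant atrx-1, named for ATRX, a gene of a chromatin remodeler. Total RNA had been depleted of ribosomal RNA, so chloroplast transcripts were counted as well as nuclear ones.

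Totals ranged from 936243 counts in wild-type library 2 to 14001726 in mutant library 1. ATRX itself was covered by few reads, 5 to 18 per wild-type library and 3 to 18 per mutant library. CPM are counts relative to the library total after TMM scaling. In these units ATRX was at 4.82, 5.46 and 5.86 in wild-type libraries 1, 2 and 3. Mutant libraries 1, 2 and 3 were at 1.24, 0.721 and 1.91, wholly below, as held for 11.4% of tested features. The log2 fold change of atrx-1 over wild type was -2.09 ± 0.38 (SE; edgeR adjusted p = 0.0536), not past the threshold of 0.05. The position of the atrx-1 lesion was not given in the sources used here. No label says that replicates were separate cultures, so each p-value rests on the spread among these libraries, and that spread may be technical. Leaf tissue was present in every library by its markers, whose summed level over 5 genes was between 9323 and 13750 CPM.

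Paralogous pairs encode 2 of the extrinsic proteins. PSBO, the manganese-stabilising protein, is encoded by PSBO1 and PSBO2, and PSBQ by PSBQ1 and PSBQ2. The coding sequences of PSBO1 (999 nt) and PSBO2 (996 nt) were identical at 83.8% of aligned bases in the reference TAIR10.1, and the encoded proteins of 332 and 331 residues at 90.9% of aligned residues. PSBQ1 and PSBQ2, with proteins of 224 and 230 residues, were identical at 80.0% of bases and 80.2% of residues. Because the split of reads within each pair is reported here, a stretch of similar coding sequence is shown for each pair. The windows lie around the longest uninterrupted identical run of the aligned coding sequences. This run is 32 bases in the PSBO pair and 31 bases in the PSBQ pair, with 15 bases shown on each side. Windows with the fewest differences were not searched for. Capitals mark bases that differ between the copies.
PSBO1: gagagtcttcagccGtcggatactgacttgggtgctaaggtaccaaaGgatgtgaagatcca
PSBO2: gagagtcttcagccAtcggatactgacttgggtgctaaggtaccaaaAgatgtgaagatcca
PSBQ1: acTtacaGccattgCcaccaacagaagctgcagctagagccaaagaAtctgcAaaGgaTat
PSBQ2: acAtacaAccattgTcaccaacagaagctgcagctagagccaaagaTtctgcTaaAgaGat
In TAIR10.1 these windows lie at chr5:26570035-26570096 on the plus strand (PSBO1), chr3:18891036-18891097 on the minus strand (PSBO2), chr4:11335155-11335215 on the plus strand (PSBQ1) and chr4:2672515-2672575 on the minus strand (PSBQ2). These windows differed at 2 bases in the PSBO pair and at 7 bases in the PSBQ pair. Every stretch of 50 bases within the exons of all 10 genes occurred once in the whole reference (100% of 50-mers in each gene). How long the reads were and how multiply matching ones were handled was not given in the sources used here.

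These 10 genes are spread over the 5 chromosomes and are short. In the TAIR10 coordinates of the deposited table, PSBO1 (AT5G66570) lies on chromosome 5 at 26568653 to 26570278 and PSBO2 (AT3G50820) on chromosome 3 at 18890876 to 18892426. PSBP1 (AT1G06680) lies on chromosome 1 at 2047825 to 2049418, PSBQ1 (AT4G21280) on chromosome 4 at 11334402 to 11335773 and PSBQ2 (AT4G05180) on chromosome 4 at 2671822 to 2673243. PSBR (AT1G79040) lies on chromosome 1 at 29736016 to 29737009 and PSBS (AT1G44575) on chromosome 1 at 16871696 to 16873383. PSBW (AT2G30570) and PSBX (AT2G06520) lie on chromosome 2, at 13019028 to 13020194 and at 2587729 to 2588358, and PSBY (AT1G67740) on chromosome 1 at 25394068 to 25395154. Gene lengths in the table ranged from 630 nt (PSBX) to 1289.5 nt (PSBS), with a median of 1062 nt against 1556 nt over the 13682 nuclear genes tested. In the TAIR10.1 annotation PSBX and PSBY have a single exon and PSBS has 5. PSBP1 and PSBR each overlap a gene on the opposite strand there, and PSBP1 a further gene on its own strand. The strand setting of the counting step was not given in the sources used here. Reads inside an overlap with an opposite-strand neighbour may therefore come from either gene. Strand cannot separate PSBP1 from the neighbour on its own strand. The size of the overlaps was not examined.

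The 250 bases before each annotated gene start were searched on both strands for 4 motifs, of which GATAAG and TATAAA share the letters ATAA. The G-box CACGTG was found before PSBQ1 and PSBQ2, so in 2 of 10 genes, and in 6.5% of 27443 nuclear protein-coding genes. GATAAG and CCAATC were each found before PSBQ2 alone, against 12.3% and 10.2% of all genes. TATAAA was found before 5 of the 10, against 47.3% of all genes. These matches describe the letters in the window only.

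All 10 genes were abundant transcripts. Expressed per kb of gene, their wild-type means ranked between 5 and 120 among the 13682 nuclear genes tested, and their mutant means between 5 and 114. The order in the wild type was led by PSBR, at 5017 ± 1067 CPM per kb (SD, n = 3), which encodes the 10 kDa subunit that stabilises PSBP binding. PSBW, a low-mass subunit needed for supercomplexes with the antenna, followed at 2116 ± 259 CPM per kb (SD, n = 3). The ranges of these 2 genes and of the next one, PSBP1, did not overlap.

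Behind them the ranges of PSBP1 (1613 CPM per kb), PSBX (1344 CPM per kb) and PSBO1 (1239 CPM per kb) each overlapped the next. The gene after PSBO1 was PSBQ2 (911 CPM per kb). PSBS (677 CPM per kb) lay below the range of PSBQ2 and overlapped PSBO2 (657 CPM per kb). PSBQ1 (343 CPM per kb) and PSBY (292 CPM per kb) were lowest and overlapped each other. From the highest to the lowest mean the span was 17.2-fold in the wild type and 13.9-fold in the mutant. In the mutant PSBR again led, at 3571 ± 347 CPM per kb (SD, n = 3). PSBW, PSBO1, PSBP1 and PSBX followed between 1515 and 1345 CPM per kb, each overlapping the next, with PSBO1 in position 3 where it held position 5 in the wild type.

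**Figure D1:**
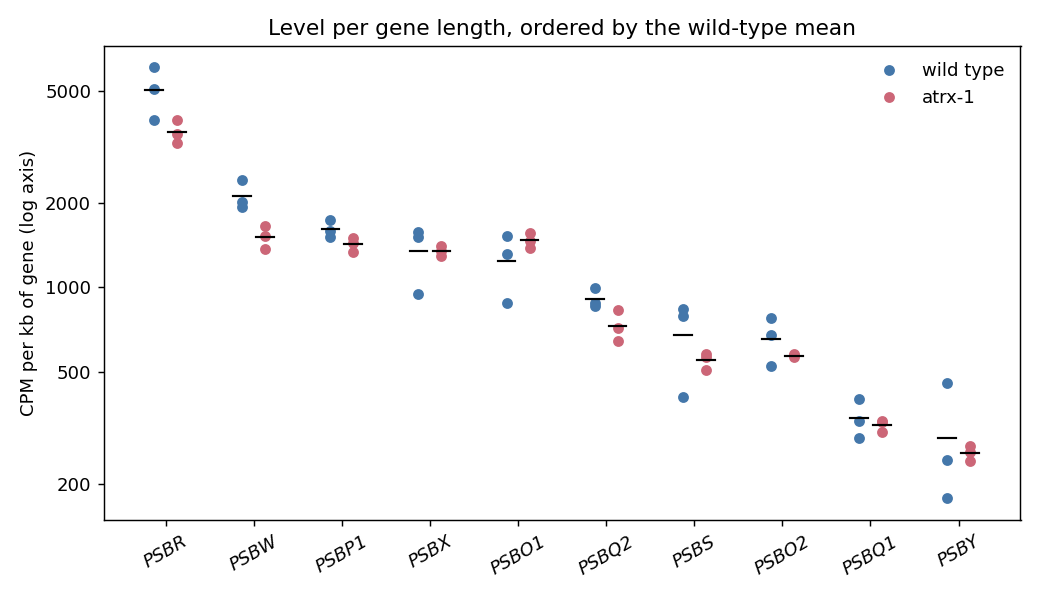
Level per gene length (CPM per kb, log axis) of the 10 genes in each of 3 wild-type (blue) and 3 atrx-1 (red) libraries, ordered by the wild-type mean; short black lines are group means. PSBR is highest in both groups, and PSBQ1 and PSBY are lowest.

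The comparison of atrx-1 with wild type asks how these transcripts differ in the mutant. None of the 10 genes passed the threshold of 0.05 in edgeR's quasi-likelihood test with Benjamini-Hochberg adjustment, where 0.116% of the 13819 tested features passed. With an unadjusted p under 0.05 there was 1 gene, PSBW, against 19.5% of tested features, and DESeq2 called 0 of the 10 against 3.48% of its tested features. The log2 fold change was below 0 in 8 genes and above 0 in PSBO1 and PSBX. The median over the 10 was -0.19, beside 0.01 over all tested features, and -0.35 without wild-type library 1. In PSBP1, PSBQ2 and PSBW the mutant range lay wholly below the wild-type range, which held for 11.4% of tested features, and in 0 of the 10 genes the mutant lay wholly above, which held for 12.2%.

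**Figure D2:**
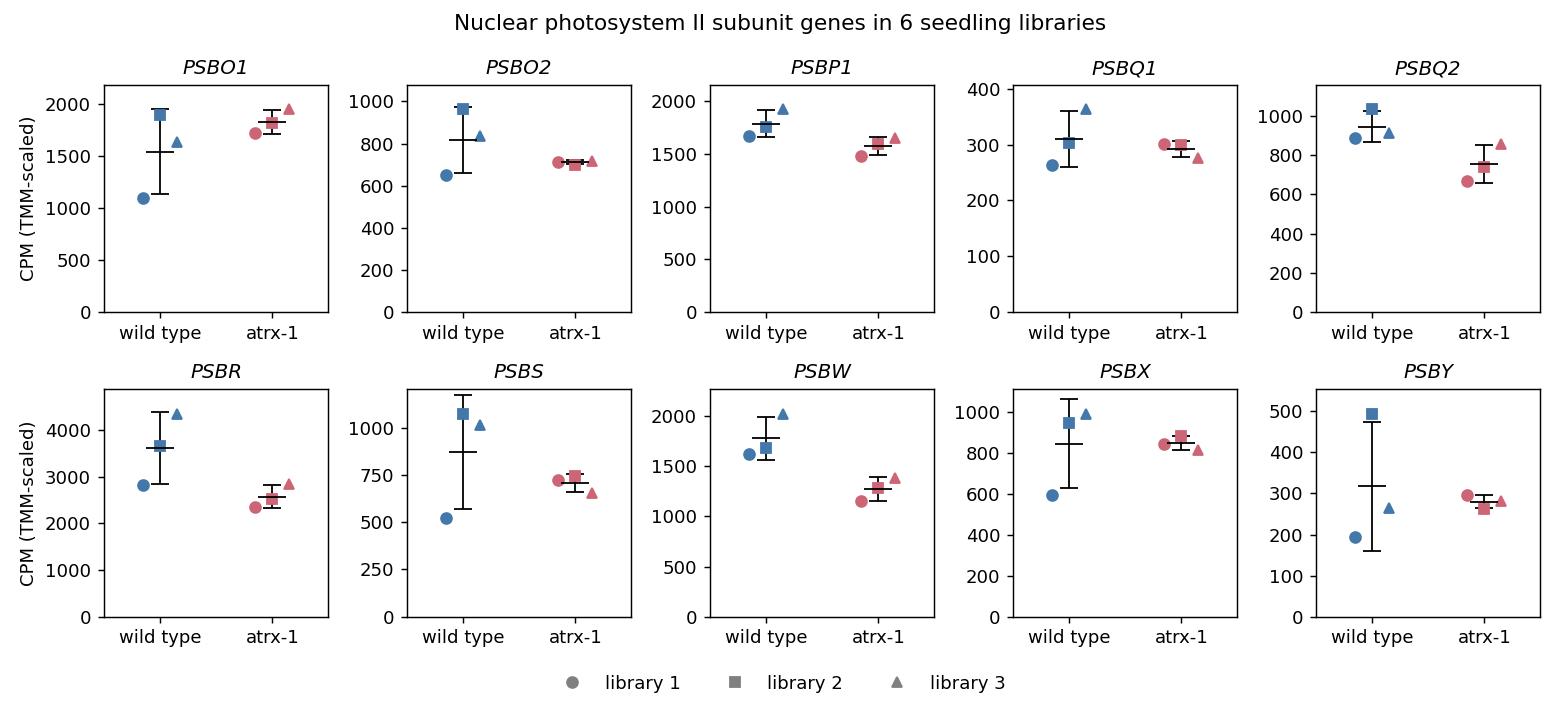
TMM-scaled CPM of each gene in the 6 libraries (marker shape gives the library number within its group); black bars are the mean and SD of 3 libraries. Wild-type library 1 (blue circle) is the lowest wild-type library in all 10 panels, and the mutant libraries lie wholly below the wild type in PSBP1, PSBQ2 and PSBW.

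Among the extrinsic proteins of the oxygen-evolving complex, PSBO1 was at 1093, 1896 and 1635 CPM in wild-type libraries 1, 2 and 3 and at 1723, 1816 and 1948 CPM in mutant libraries 1, 2 and 3. The groups overlapped, with wild-type library 1 far below the other 5 libraries. The log2 fold change was 0.25 ± 0.24 (SE; 95% interval -0.27 to 0.77; edgeR adjusted p = 0.608). PSBO2 was at 650.0, 963 and 838 CPM in the wild type and at 712, 701 and 719.5 CPM in the mutant. Here too wild-type library 1 was lowest, and the mutant libraries lay close together between it and the other wild-type libraries. The log2 fold change was -0.20 ± 0.21 (SE; edgeR adjusted p = 0.65).

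PSBP1, which encodes the subunit that helps retain calcium and chloride at the manganese cluster, was at 1669, 1755 and 1918 CPM in the wild type and at 1479.8, 1593 and 1649 CPM in the mutant. The groups stood apart by a narrow margin, and the log2 fold change was -0.18 ± 0.20 (SE; edgeR adjusted p = 0.671). PSBQ, which binds next to PSBP, was represented mainly by PSBQ2, at 889.9, 1034 and 911 CPM in the wild type and 668, 741 and 859 CPM in the mutant. All mutant values were below all wild-type values, with a log2 fold change of -0.32 ± 0.20 (SE; edgeR adjusted p = 0.414). PSBQ1 was at 263, 303 and 363 CPM in the wild type and at 301, 298 and 277 CPM in the mutant, so the mutant range lay inside the wild-type range. Its log2 fold change was -0.08 ± 0.20 (SE; edgeR adjusted p = 0.862).

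PSBR and PSBW, the most abundant of the set per kb, had the lowest fold changes. PSBR was at 2824, 3655 and 4359 CPM in the wild type and at 2349, 2524 and 2842 CPM in the mutant. Mutant library 3 exceeded wild-type library 1 slightly, and the log2 fold change was -0.49 ± 0.23 (SE; 95% interval -0.99 to 0.01; edgeR adjusted p = 0.267). PSBW was at 1624, 1686 and 2029 CPM in the wild type and at 1154, 1284 and 1385 CPM in the mutant. The groups did not overlap, and the log2 fold change was -0.48 ± 0.21 (SE; 95% interval -0.94 to -0.03), with an unadjusted p of 0.0392 and an edgeR adjusted p of 0.232.

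PSBX and PSBY encode small single-span subunits near cytochrome b559, and PSBY is made as a precursor of more than 1 mature peptide. PSBX was at 596, 949.6 and 994 CPM in the wild type and at 847, 882 and 813 CPM in the mutant, with equal means of 847 CPM and a log2 fold change of 0.0021 ± 0.23 (SE; 95% interval -0.50 to 0.51; edgeR adjusted p = 0.999). PSBY was at 193, 495 and 264 CPM in the wild type and at 296, 263 and 282 CPM in the mutant. Its wild-type values differed among themselves more than those of any other of the 10 genes (coefficient of variation 49.8%), and the log2 fold change was -0.17 ± 0.30 (SE; edgeR adjusted p = 0.805). Without wild-type library 2, its highest, the value was 0.27.

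PSBS encodes the pH sensor of the antenna that switches on dissipation of excess light energy, and it takes no part in water oxidation. It was at 525, 1077 and 1016 CPM in the wild type and at 727, 748 and 655 CPM in the mutant. Wild-type library 1 lay below the mutant range and the other wild-type libraries above it. The log2 fold change was -0.30 ± 0.27 (SE; 95% interval -0.87 to 0.28; edgeR adjusted p = 0.573).

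Wild-type library 1 was the lowest of the wild-type libraries in 10 of 10 genes, and it was so in 35.0% of all tested features. Summed over the 10 genes the level was 10328, 13813 and 14326 CPM in wild-type libraries 1, 2 and 3 and 10255, 10850 and 11428 CPM in the mutant libraries. Of the reads of nuclear genes, the 10 took 2.27%, 3.40% and 3.23% in these wild-type libraries. In the mutant libraries they took 2.65%, 2.83% and 2.93%, inside the wild-type range. Wild-type library 1 had the lowest summed level of the 5 leaf markers, at 9323 CPM against 12833 and 13750 CPM in the other wild-type libraries and 11171 to 12512 CPM in the mutant. It also had the highest summed level of the 9 root markers, at 1800.2 CPM against 1218 and 1455 CPM in the other wild-type libraries and 1066 to 1315 CPM in the mutant. Most of that sum was the root beta-glucosidase gene PYK10 (1766 CPM in wild-type library 1), while the root markers NRT2.1 and WOX5 had a count of 0 in all 6 libraries. The part of tissue makeup in the low values was not tested, and in whole seedlings fewer cells of a type and less RNA per cell cannot be told apart.

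Without wild-type library 1, edgeR still called 0 of the 10 genes, against 2.61% of tested features. The log2 fold change then became -0.64 ± 0.16 (SE) for PSBR, -0.56 ± 0.16 (SE) for PSBS and -0.54 ± 0.16 (SE) for PSBW, with edgeR adjusted p of 0.0505, 0.0736 and 0.0861. In this fit 3 of the 10 had an unadjusted p under 0.05, against 20.9% of tested features, and 9 of 10 values were below 0, PSBX having turned from 0.0021 to -0.19. PSBO1 went from 0.25 to 0.06, PSBO2 from -0.20 to -0.34, PSBQ1 from -0.08 to -0.19 and PSBY from -0.17 to -0.42. Leaving out another wild-type library instead moved PSBS the opposite way, to -0.15 without library 2 and to -0.17 without library 3. PSBR was then at -0.51 and -0.33, and PSBW at -0.55 and -0.38.

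Of the 10 genes, 3 had an adjusted p under 0.05 in the authors' deposited table, against 7.06% of the 6995 features with one. These were PSBR (log2 fold change -0.61, adjusted p = 0.00164), PSBS (-0.53, adjusted p = 0.00231) and PSBW (-0.52, adjusted p = 0.0126). The remaining 7 had log2 fold changes between -0.37 (PSBY) and 0.05 (PSBO1) in the authors' deposited table. DESeq2 with shrunken fold changes was therefore refitted over the 23316 features for which the authors give a p-value, first with all libraries and then without each in turn. Over these features the authors' log2 fold changes differed from the refit by a median of 0.0924 with all libraries and of 0.0241 without wild-type library 1. Without any other library the median difference was 0.0935 to 0.157. Pearson's r across features, which are not independent replicates, was 0.862 with all libraries, 0.989 without wild-type library 1 and at most 0.856 without another. The refit without that library called PSBR, PSBS and PSBW, with adjusted p of 0.00344, 0.00594 and 0.0174, and 6.52% of its tested features. With all libraries it called none of them, at adjusted p of 0.164, 0.559 and 0.118. The refit without wild-type library 1 called 276 of 4230 tested features, and 260 of these were among the 494 called in the authors' deposited table. Many of the authors' calls were therefore not recovered. With all libraries 203 of 5564 tested features were called, 158 of them shared with the authors' calls. The set of libraries behind the authors' comparison was not given in the sources used here.

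**Figure D3:**
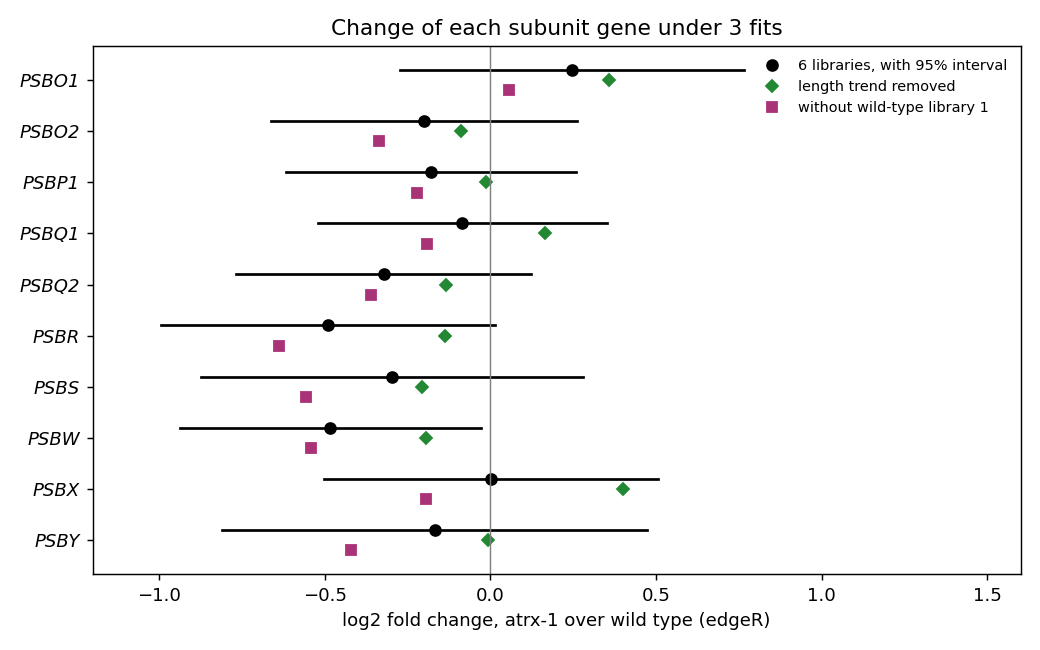
Log2 fold change of atrx-1 over wild type for each gene from edgeR with all 6 libraries (black, with 95% interval), with the trend on gene length removed from each library (green), and without wild-type library 1 (purple). Only the black interval of PSBW leaves out 0, and removing the length trend moves every value upwards.

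Shorter genes had lower fold changes across the whole table. Spearman's rho of fold change with length was 0.575 across the 13682 nuclear genes, which are not independent of each other, and 0.188 across the 10 genes. Among 10 groups of nuclear genes by length, those with median lengths of 643, 877, 1093 and 1286.5 nt, which cover the lengths of the 10 genes, had median log2 fold changes of -0.49, -0.31, -0.20 and -0.11. PSBR (720 nt) was at -0.49, the median of its own length group, and PSBW (841 nt) at -0.48, below the -0.31 of its group. PSBX, the shortest at 630 nt, was at 0.0021, above the median of its group. After removal of the length trend within each library, the median of the 10 became -0.05 and 3 of the 10 were above 0. PSBR was then at -0.14 ± 0.25 (SE), PSBW at -0.20 ± 0.21 (SE), PSBQ2 at -0.13 ± 0.21 (SE) and PSBS at -0.21 ± 0.27 (SE). On the higher side PSBX was at 0.40 ± 0.26 (SE), PSBO1 at 0.36 ± 0.24 (SE) and PSBQ1, with a changed sign, at 0.17 ± 0.20 (SE). With this correction edgeR called 0 of the 10, and 0% of all tested features, and 0 of the 10 had an unadjusted p under 0.05, against 10.9% of tested features.

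**Figure D4:**
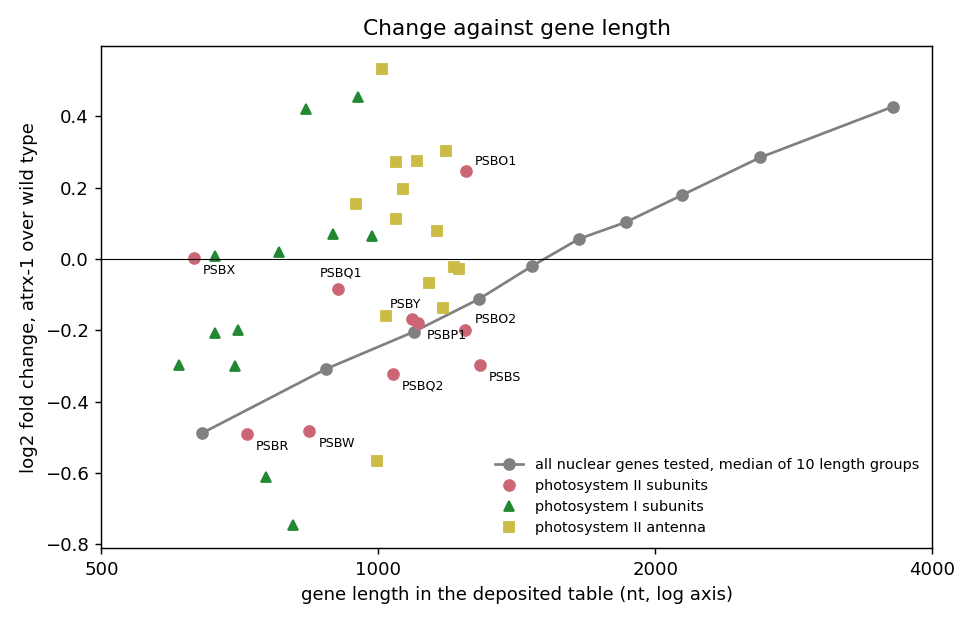
Log2 fold change of atrx-1 over wild type against gene length (nt, log axis) for the 10 photosystem II subunit genes (red, named), 12 photosystem I subunit genes (green) and 14 photosystem II antenna genes (yellow). The grey line joins the medians of 10 length groups of all nuclear genes tested and rises from -0.49 to 0.43.

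PSBO1 and PSBO2 are 1244 and 1243 nt long in the table, so dividing by these lengths leaves their shares nearly unchanged. Their TAIR10.1 transcripts are 1508 and 1327 nt long, and an effect of length on the share was not tested. PSBO1 took 62.7%, 66.3% and 66.1% of the pair's reads in libraries 1, 2 and 3 of the wild type and 70.8%, 72.1% and 73.0% in mutant libraries 1, 2 and 3. All 3 mutant libraries lay above all 3 wild-type libraries. For the CPM of single features this held in 12.2%, with 11.4% wholly below. No such background was computed for ratios of gene pairs. The group means were 65.1% ± 2.03 (SD, n = 3) and 72.0% ± 1.14 (SD, n = 3), a difference of 6.93 percentage points, which exceeded the SD of either group. The exact two-sided permutation test gave p = 0.1, the smallest p that 3 against 3 libraries allow, and p = 0.2 after adjustment over the 2 pairs compared. Expressed as a ratio, there were 1.86 PSBO1 reads per PSBO2 read in the wild type and 2.57 in the mutant (geometric means).

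The pair was covered by 2616 to 35466 reads per library. The Wilson 95% interval of the share reached up to 68.1% in wild-type library 2 and down to 70.3% in mutant library 1, so the ranges were also separate after counting error, which is all that the interval covers. Leaving out any single library left a difference between 5.76 and 7.56 percentage points. Neither gene passed the genome-wide test on its own.

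The PSBQ pair showed no such separation. PSBQ1 took 22.8%, 22.6% and 28.5% of the pair's reads in libraries 1, 2 and 3 of the wild type and 31.1%, 28.7% and 24.4% in mutant libraries 1, 2 and 3. The groups overlapped, with means of 24.7% ± 3.32 and 28.0% ± 3.40 (SD, n = 3 each; exact two-sided permutation test, p = 0.2). PSBQ1 is 903.5 nt and PSBQ2 1037 nt long. Per kb of gene the PSBQ1 share was between 25.2% and 31.4% in the wild type and between 27.0% and 34.1% in the mutant. The difference between the shifts of the pairs was not tested.

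**Figure D5:**
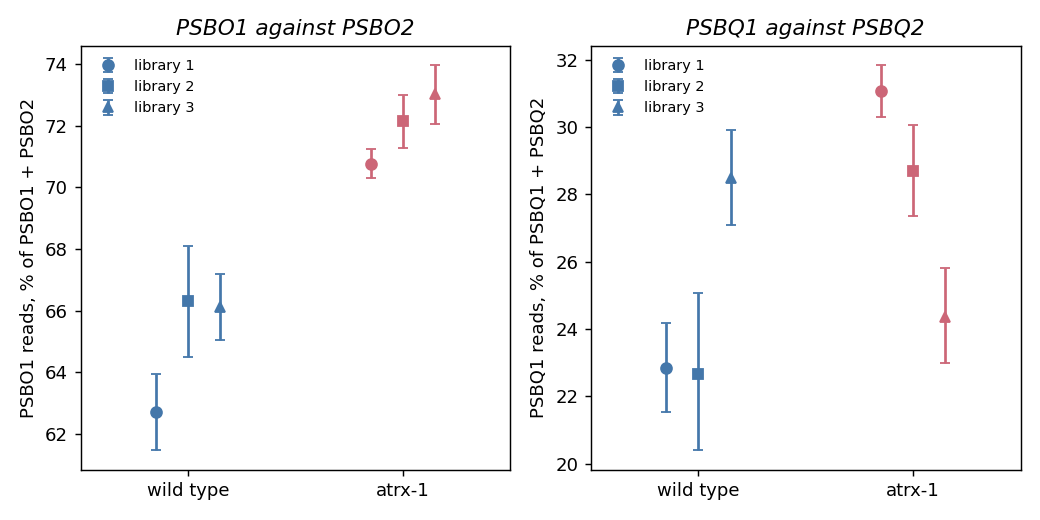
Share of reads (%) taken by PSBO1 within the PSBO pair (left) and by PSBQ1 within the PSBQ pair (right) in each library, with Wilson 95% intervals for counting error; axes do not start at 0. The PSBO1 share is 62.7% to 66.3% in the wild type and 70.8% to 73.0% in atrx-1, while the PSBQ1 shares of the groups overlap.

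The spread between libraries was larger in the wild type for 9 of the 10 genes, PSBQ2 being the exception. The median coefficient of variation was 20.3% in the wild type and 6.06% in the mutant. Over all tested features the wild-type spread was larger in 77.4%, with medians of 26.9% and 14.2%. Over the 544 features of at least 100 CPM it was larger in 80.1%, with medians of 20.6% and 8.73%. Among the 10 genes PSBO2 was steadiest in the mutant, at 711 ± 9.36 CPM (SD, n = 3) with a coefficient of variation of 1.32%.

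The other nuclear photosystem II genes examined were PSBP2, PSBTN, PSBTN2, PPL1, PSB27, LPA19, PSB28 and PSB33. Of the 8, edgeR called 0, while 2 had higher and 6 lower values, and the median log2 fold change was -0.12. With the length trend removed, 4 were higher and 4 lower and the median turned to 0.05. PSBTN2, a gene annotated as a 5 kD photosystem II protein, had the smallest p of the list, at 1378 ± 209 CPM per kb in the wild type and 884 ± 124 CPM per kb in the mutant (SD, n = 3 each). Its log2 fold change was -0.64 ± 0.21 (SE; edgeR adjusted p = 0.132), and -0.18 ± 0.24 (SE) with the length trend removed. PSBTN, the other 5 kDa gene, was at 749 ± 228 and 695 ± 61.4 CPM per kb (SD, n = 3 each). PSBP2, annotated as a putative second PSBP gene, was at 4.48 ± 1.71 and 5.10 ± 1.56 CPM per kb, far below PSBP1 at 1613 ± 115 and 1426 ± 78.1 CPM per kb (SD, n = 3 each).

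Transcripts of the remaining genes of this list lay between those of PSBTN and PSBP2 in level. PSB27, which binds assembling complexes, was at 218 ± 73.2 and 239 ± 11.5 CPM per kb in wild type and mutant, and its relative LPA19, which acts in processing of the D1 protein, at 17.7 ± 2.43 and 11.7 ± 0.476 CPM per kb (SD, n = 3 each). PSB28 was at 89.2 ± 24.2 and 61.6 ± 7.03 CPM per kb, PSB33 at 93.6 ± 33.2 and 85.2 ± 11.7 CPM per kb, and PPL1, a PSBP-like protein, at 46.7 ± 18.2 and 41.3 ± 8.82 CPM per kb (SD, n = 3 each). The mutant range lay wholly below the wild-type range in PSBTN2, LPA19 and PSB28, so in 3 of 8, against 11.4% of tested features. None of these 3 passed the edgeR threshold. In the authors' deposited table PSBTN2 and PSB28 had an adjusted p under 0.05, at 0.00356 and 0.00628, so 2 of the 7 that have one, against 7.06% of all features.

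With all 6 libraries and the low-count filter, none of the pathway lists held a gene past the edgeR threshold. Of 12 assembly factors 7 had higher and 5 lower values (median log2 fold change 0.06), or 9 and 3 after the length correction (median 0.17), and LPA1, which assists D1 insertion, had the smallest p, at 0.77 ± 0.21 (SE; edgeR adjusted p = 0.0905). Among 11 repair proteases, kinases and phosphatases 8 had higher and 3 lower values (median 0.10), but 5 and 6 after the length correction (median -0.02), and the lumenal protease gene DEG5 was at -0.63 ± 0.20 (SE; edgeR adjusted p = 0.12). The 12 nuclear photosystem I genes divided into 6 higher and 6 lower (median -0.10), but into 10 higher and 2 lower after the length correction (median 0.23). PSAN, a lumenal subunit, was at -0.75 ± 0.20 (SE; edgeR adjusted p = 0.0856), and at -0.44 ± 0.20 (SE) after that correction. DESeq2 called PSAN and PSAK of that list as lower, against 3.48% of its tested features. The authors' deposited table called 1 photosystem I gene as higher and 4 as lower, the assembly gene MET1 and DEG5 as lower and the leaf marker RCA as higher, against the same 7.06%.

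The 14 antenna genes of photosystem II divided into 8 higher and 6 lower (median log2 fold change 0.10), or 12 and 2 after the length correction (median 0.25), with LHCB1.4 at 0.53 ± 0.25 (SE; edgeR adjusted p = 0.271). Of 11 regulators of photosynthesis genes 9 were higher and 2 lower (median 0.22), or 8 and 3 after the length correction (median 0.14), with GUN1, a plastid signalling protein encoded by a gene of 3110.0 nt, at 0.68 ± 0.23 (SE; edgeR adjusted p = 0.13). With the length trend removed, GUN1 was at 0.35 ± 0.22 (SE). Counts at an unadjusted p under 0.05 were 3 in the list of other nuclear subunits, 1 for assembly, 2 for repair, 3 for photosystem I, 0 for the antenna and 1 for the regulators, beside 19.5% of all tested features. Of the 5 leaf markers 1 was higher and 4 lower (median -0.09), with the Rubisco activase gene RCA at 0.43 ± 0.22 (SE; edgeR adjusted p = 0.312). Of the 9 root markers 5 were tested, 1 higher and 4 lower (median -0.74), with the aquaporin gene TIP2;3 at -0.88 ± 0.30 (SE; edgeR adjusted p = 0.134).

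The chloroplast-encoded subunits took most photosystem II reads. Of the reads of the 10 nuclear and 15 chloroplast photosystem II genes together, the nuclear part was 2.32% to 3.10% in the wild type. In the mutant it was 2.49% to 2.86%. The gene of the D1 protein, psbA, alone held most of the chloroplast part. Its share of that part was 93.7% to 96.2% in the wild type and 90.2% to 93.5% in the mutant. Without psbA the nuclear part was 27.3% to 39.4% in the wild type and 20.6% to 31.2% in the mutant. Differences in these shares were not tested. Of the 15 chloroplast genes 8 had higher and 7 lower values and edgeR called 0, with 6 at an unadjusted p under 0.05, against 19.5% of tested features. The smallest p belonged to psbD, the gene of the D2 protein, at 0.80 ± 0.23 (SE; edgeR adjusted p = 0.0936). DESeq2 called psbC and psbD as higher and psbM as lower, so 3 of 15 against 3.48% of its tested features.

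Across the 6 libraries, the profile of the 10 genes, taken as the mean of their standardised log2 CPM, was compared with 6916 other features of at least 10 CPM. The most similar were a phosphoglycerate kinase gene (AT1G79550, Pearson's r = 0.998), AT2G31040, annotated as related to ATP synthase protein I (0.992), the glutathione S-transferase gene GSTT1 (0.991), the beta carbonic anhydrase gene BCA5 (0.991) and the ubiquitin-conjugating enzyme gene UBC27 (0.990). Their likeness was fixed by this selection. The values share their libraries and scaling and describe the 6 libraries only.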

How the data were processed

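RNA-seq of 6 seedling libraries (3 wild type, 3 atrx-1, grouped by sample title) was used. The submitters' processing notes name the build TAIR10 and, with no roles, DESeq, DESeq2 (1.6.3), HTSeq (0.6.1), Bowtie2 (2.1.0), TopHat2 (2.0.14) and CASAVA (1.8.2). The authors deposited raw read counts per gene, a normalized signal and that signal divided by gene length in kb, per the file headers. The ratio of the deposited signals gave gene length. The authors' log2 fold change and p-values were taken as deposited, per the file headers.

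Counts of all features were tested with edgeR 4.0.16 in R 4.3.3: TMM, filterByExpr (minimum of 10 counts scaled to library size, and of 15 in total), the functions glmQLFit and glmQLFTest, a model of genotype alone, Benjamini-Hochberg adjustment, threshold 0.05. Standard errors came from the F statistic. All 10 genes passed the filter. Alternatives were DESeq2 1.42.0, RLE factors, nuclear features only, no filter, replicate number as a block, removal of each library's lowess trend (span 0.3) on gene length, and leaving out each library. The length trend was fitted to nuclear genes and removed from these only, so chloroplast genes were left uncorrected. The DESeq2 refits with shrunken fold changes were chosen after seeing the data. Read shares within paralogous pairs were compared by exact permutation tests. Scripts were tested on simulated data. Sequences came from TAIR10.1 (RefSeq), used for structure and not with the table's coordinates. The count table held 0 unmapped per-sample columns. Named genes were the 10 members, ATRX, the other nuclear subunits, the member with the smallest p of each list and the 5 genes of most similar profile; genes called by DESeq2 or in the authors' table, and PYK10, NRT2.1 and WOX5, were named with their values in view. Members and lists were chosen with earlier results of these data known. The Wilson intervals of the read shares cover counting error only. The intervals of the fold changes came from the edgeR standard errors, which rest on the spread among these libraries.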

Additional observations from a re-analysis of the deposited data

How the results depend on the processing

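Under 19 other settings, edgeR or DESeq2 called 0 of the 10 genes, and 3 were called by DESeq2 with shrunken fold changes without wild-type library 1, an alternative chosen after seeing the data. The number of features called over the whole table, 16, was 211 in DESeq2, 38 with RLE factors, 592 without a filter, 34 with the replicate block, 0 with the length correction (1513 at an unadjusted p under 0.05) and 1 with both of these. It ranged from 0 (without mutant library 1 or 2, with 1575 and 1733 at an unadjusted p under 0.05) to 378 (without wild-type library 1) when single libraries were left out, and from 0 to 24 with the length correction as well. Without wild-type library 1 edgeR also called genes of the lists, against 2.61% of tested features. These were 1 other nuclear subunit, 2 chloroplast photosystem II genes, 1 repair gene and 1 photosystem I gene. In the chloroplast list there were 2 calls without a filter, against 2.57%. The length correction adjusted nuclear genes only. In the fit with it and without wild-type library 1 there was 1 call in the chloroplast list, against 0.11%. The cause of these moves was not tested.

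Same-numbered libraries did not deviate together (correlations of 0.061, 0.069 and -0.080 over nuclear genes), so the number was not taken to pair them, and the replicate block changed no call among the 10 genes. Directions changed for values that had passed no test. With the length correction PSBQ1 was at 0.17, and with the replicate block added it was at 0.18 and PSBY at 0.11. RLE factors gave -0.016 for PSBX. With single libraries left out, PSBX ranged from -0.19 to 0.14, PSBY from -0.42 to 0.27 and PSBQ1 from -0.19 to 0.049. With the length correction and single libraries left out, PSBQ1 was at 0.041, 0.19, 0.29, 0.14, 0.16 and 0.21, PSBY reached 0.48 and 0.038, PSBP1 0.042 and 0.021, PSBO2 0.056, PSBR 0.0025 and the median of the 10 genes 0.024. PSBO1, PSBQ2, PSBS and PSBW kept their direction in all 19. The PSBO1 share stayed higher in the mutant in all 7 alternatives, as did the PSBQ1 share. At 3 libraries a group, permutation tests cannot go below p = 0.1.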
